A study of Mus musculus with 4 samples.

Results

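Transcripts of 38 genes that build, drive or restrain signalling from the T-cell receptor were followed in activated CD4 T cells of 2 sorted mouse populations. The 38 were taken from a fixed list of names, chosen with earlier results of these data known. All 38 were found among the 28625 genes of each count table. By role they were 7 receptor and surface genes (Cd3d, Cd3e, Cd3g, Cd247, Cd4, Cd2, Ptprc), 4 kinases (Lck, Fyn, Zap70, Prkcq), 15 adaptors and effectors (Lat, Lcp2, Plcg1, Vav1, Grap2, Grb2, Themis, Bcl10, Malt1, Rasgrp1, Sos1, Nck1, Was, Skap1, Fyb) and 12 inhibitors (Cd5, Cd6, Ptpn6, Ptpn22, Csk, Pag1, Ubash3a, Ubash3b, Cbl, Cblb, Dgka, Dgkz). The mice had been given 10 µg of Alternaria alternata extract, a fungal allergen, with 25 µg of NP-OVA, a hapten on ovalbumin, through the nose. On day 7 their mediastinal lymph nodes were taken and the cells were sorted and stimulated for 30 minutes with PMA and ionomycin. The Tfh sort held T follicular helper cells, the helpers of B cells, taken from C57BL/6 mice as TCRβ+ CD4+ CD44+ PD-1+ CXCR5+ cells. The IL-4 reporter sort held CD44+ GFP+ cells of C57BL/6 4GET mice, which carry a GFP reporter at the IL-4 gene. Each sort pooled cells of 3 mice, told apart by hashtag antibodies, and was run as 1 lane of 10x Genomics 3′ single-cell sequencing.

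When a T cell binds its antigen, the kinase Lck, held ready by the phosphatase CD45 (the product of Ptprc), phosphorylates the CD3 chains and the zeta chain (Cd247), and the kinase Zap70 then docks on them. Zap70 phosphorylates the scaffold proteins Lat and Slp-76 (Lcp2), which gather phospholipase C gamma 1 (Plcg1), Vav1 and Ras activators, and protein kinase C theta (Prkcq) passes the signal through Bcl10 and Malt1 to NF-kappaB. Csk, the phosphatases, the ubiquitin ligases Cbl and Cblb and the diacylglycerol kinases Dgka and Dgkz damp these steps. PMA imitates diacylglycerol and ionomycin lets calcium into the cell, so the 30 minutes of stimulation act below the receptor and its proximal kinases. The values that follow are transcript counts, not protein or phosphorylation.

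RefSeq promoters (build GRCm38.p6, 250 bases before to 50 after the transcription start) were matched for 32 of the 38 genes. The 5 printed here belong to genes on which the results turn: Ptprc, Cd247 and Fyn, which were lower in Il13+ cells and higher in Il21+ cells of the reporter sort, and the neighbours Cd3g and Cd3d, whose results differed. A search on both strands, counting a promoter once per motif, took AGATAA for GATA factors, TGANTCA for AP-1, GGAAGT for ETS factors and TGTGGT for RUNX factors. Capitals mark a match, and ACTTCC is GGAAGT read on the other strand.
Ptprc: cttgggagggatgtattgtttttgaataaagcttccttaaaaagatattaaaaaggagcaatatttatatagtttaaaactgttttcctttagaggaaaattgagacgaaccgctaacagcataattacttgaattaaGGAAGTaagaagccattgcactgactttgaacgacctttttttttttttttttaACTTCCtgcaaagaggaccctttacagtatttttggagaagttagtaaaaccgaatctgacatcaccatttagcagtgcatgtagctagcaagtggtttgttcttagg
Cd247: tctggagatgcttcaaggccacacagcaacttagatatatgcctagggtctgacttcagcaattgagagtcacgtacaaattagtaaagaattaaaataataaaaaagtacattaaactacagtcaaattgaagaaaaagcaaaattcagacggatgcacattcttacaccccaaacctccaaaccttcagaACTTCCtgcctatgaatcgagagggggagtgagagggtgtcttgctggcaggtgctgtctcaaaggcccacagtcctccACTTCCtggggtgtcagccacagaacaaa
Fyn: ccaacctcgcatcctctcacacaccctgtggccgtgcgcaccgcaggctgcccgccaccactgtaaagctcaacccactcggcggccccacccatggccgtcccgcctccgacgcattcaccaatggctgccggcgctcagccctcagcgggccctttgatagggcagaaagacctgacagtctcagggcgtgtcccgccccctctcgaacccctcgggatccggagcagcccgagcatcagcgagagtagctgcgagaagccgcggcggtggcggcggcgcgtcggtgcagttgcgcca
Cd3g: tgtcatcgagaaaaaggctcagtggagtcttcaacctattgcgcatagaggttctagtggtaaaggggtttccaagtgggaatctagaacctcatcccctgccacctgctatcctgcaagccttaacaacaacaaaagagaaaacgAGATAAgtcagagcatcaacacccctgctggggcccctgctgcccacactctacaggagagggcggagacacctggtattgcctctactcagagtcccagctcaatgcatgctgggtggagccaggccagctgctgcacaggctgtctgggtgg
Cd3d: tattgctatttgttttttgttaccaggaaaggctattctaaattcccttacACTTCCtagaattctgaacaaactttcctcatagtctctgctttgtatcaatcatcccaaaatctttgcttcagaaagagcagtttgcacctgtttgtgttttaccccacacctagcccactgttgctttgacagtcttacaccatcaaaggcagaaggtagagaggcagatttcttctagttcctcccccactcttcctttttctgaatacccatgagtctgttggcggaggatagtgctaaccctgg
In the order shown they lie at chr1:138175256-138175555 (minus strand), chr1:165788431-165788730 (plus), chr10:39369549-39369848 (plus), chr9:44980382-44980681 (minus) and chr9:44981536-44981835 (plus). Ptprc and Cd247 each hold 2 ETS matches, Cd3d holds 1, Cd3g holds 1 GATA match, and the Fyn window holds none of the 4 motifs. Taking the first promoter listed per gene, 12 of the 32 hold the ETS motif, beside 23.8% of all 32851 mouse promoters of the same length. The GATA motif stood in 4 of 32 beside 11.2% of all, the RUNX motif in 4 of 32 beside 16.8%, and the AP-1 motif in 0 of 32 beside 7.81%. These matches describe letters in a window and say nothing of binding. Cd3g and Cd3d start head to head on chromosome 9 with 1338 bases between them, and with Cd3e they lie within 40092 bases.

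Cells entered with 500 or more genes, at most 10% mitochondrial UMIs (unique molecules counted), no UMI of the B-cell gene Cd79a and 1 clear hashtag. This left 3058 of 3956 barcodes in the Tfh sort (1140, 1229 and 689 from mice 1, 2 and 3) and 3668 of 7646 in the reporter sort (1239, 1075 and 1354). The median depth per mouse was 2636 to 2886 UMIs per cell in the Tfh sort and 6481 to 6898 in the reporter sort. To compare cells at equal depth, each cell was thinned at random to 1500 UMIs in the Tfh sort (2994 cells deep enough) or 3000 in the reporter sort (3204 cells, with 12.6% shallower and left out). Strain, sort gate, 10x chemistry version and sequencer all changed together between the sorts, so their parts in any difference between the sorts cannot be told apart, and no test was made across sorts. The lanes shared 1 cell barcode.

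In both sorts Ptprc, Cd3d and Cd3g stood at the top of the members and Grap2 and Sos1 near the bottom. In the Tfh sort, Ptprc stood at 1511, 1506 and 1386 CPM (UMI counts after thinning, scaled to the same total in every mouse) in mice 1, 2 and 3. Cd3d stood at 1312, 1271 and 1276 CPM there, and Cd3g at 1265, 1344 and 1276, so the CD3 delta and gamma chains did not differ beyond their spread. In the reporter sort Cd3g led with 1463, 1402 and 1373 CPM, beside 1322, 1344 and 1521 for Ptprc and 1185, 1071 and 1167 for Cd3d. Lck had the highest CPM of the 4 kinases in both sorts, at 1067, 1075 and 980.3 CPM in Tfh-sorted cells but 496, 511 and 534 in reporter-sorted ones. The other kinases were lower in CPM, with Zap70 at 365 ± 13.4 (SD, n = 3 mice), Fyn at 219 ± 7.37 and Prkcq at 127 ± 17.6 in the Tfh sort. Their reporter-sort levels were 261 ± 0.437, 264 ± 5.15 and 144 ± 22.0. Sos1, an activator of Ras, was the lowest in both sorts, at 5.60 ± 1.97 and 16.0 ± 3.12 CPM. A 3′ tag counts 1 end of each transcript, so these levels were not divided by gene length. The order of genes also carries differences in how well each 3′ end is captured.

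The CD4 T-cell label was held against the genes themselves. The T-cell chains were far lower in cells with 2 or more Cd79a UMIs, a B-cell background, where Cd3g stood at 149 and 226 CPM, Cd247 at 46.9 and 46.0 and Cd4 at 28.4 and 40.2 in the Tfh and reporter sorts. Some members were higher in those B cells than in the T cells. Ptpn6, the phosphatase SHP-1, stood at 349 against 108 CPM in the Tfh sort and 323 against 110 in the reporter sort. Grb2 stood at 185 against 108 and 338 against 163, and Pag1, an anchor for Csk, at 39.5 against 11.3 and 81.9 against 31.4. Residual B-cell transcripts can therefore enter the values of these genes.

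**Figure D1:**
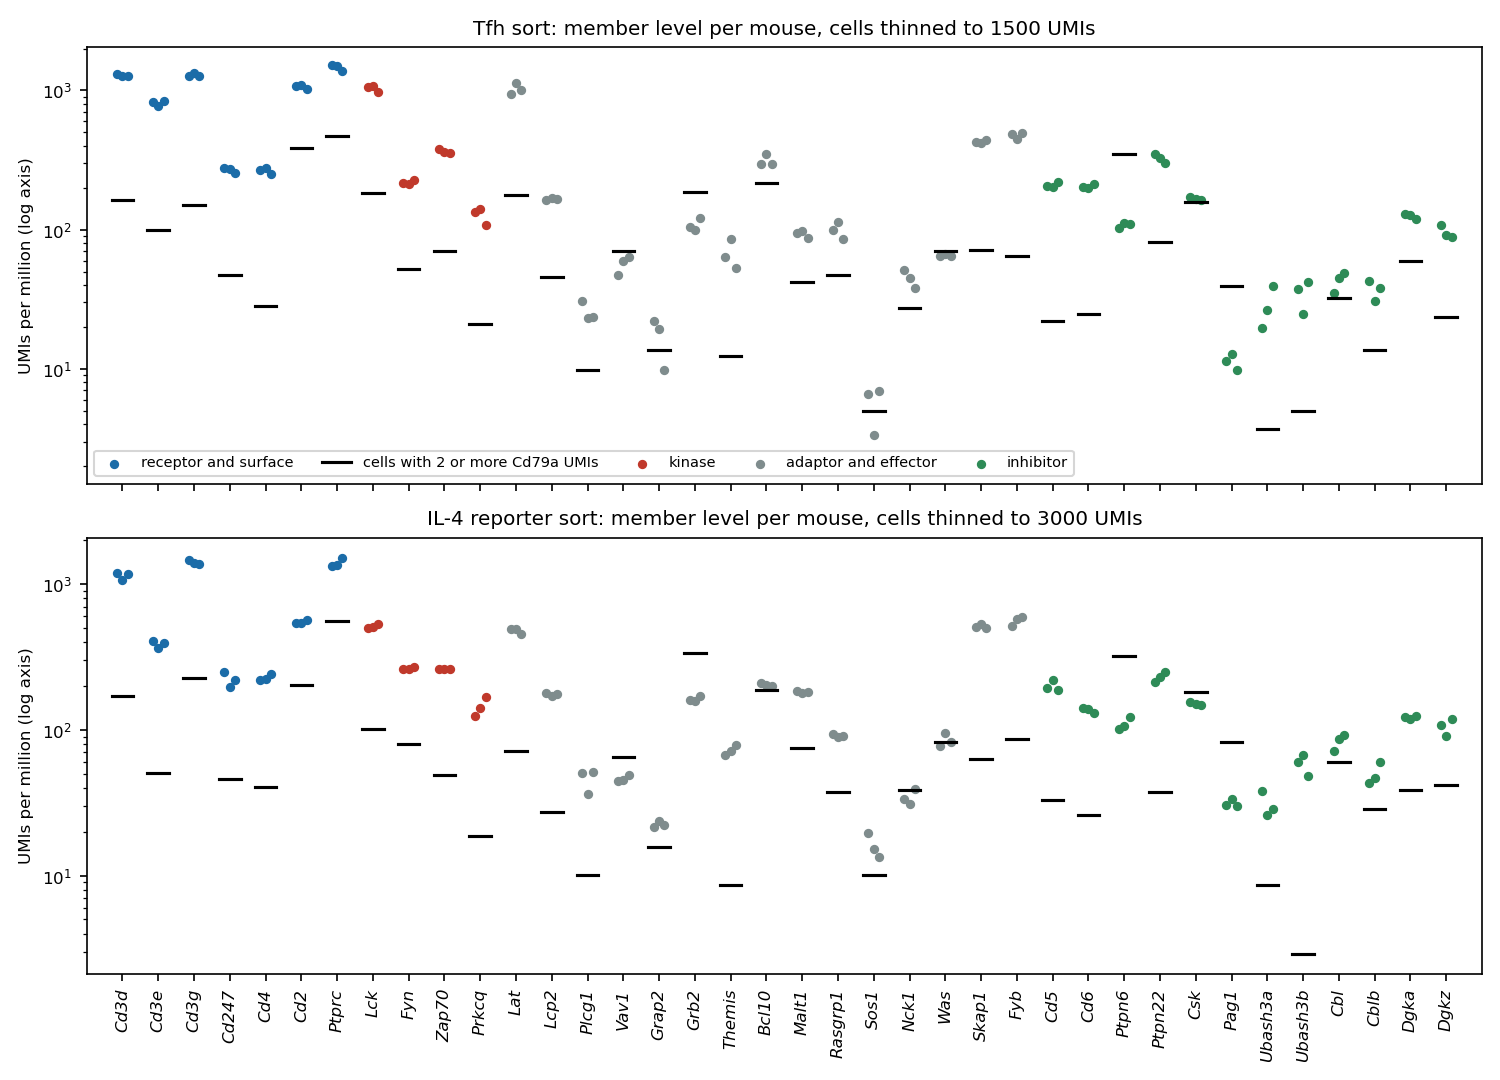
Level of each of the 38 genes in the 2 sorts. The horizontal axis lists the genes by role and the vertical axis is CPM of thinned UMIs on a log scale; points are the 3 mice and the black bar is the level in cells with 2 or more Cd79a UMIs. Cd3d, Cd3g and Ptprc sit highest and Sos1 lowest in both sorts, and the black bar lies above the mice for Ptpn6, Grb2, Pag1 and Vav1 in both sorts.

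Cells of each sort were then divided by whether a marker transcript was seen after thinning, for 7 markers: Il13, Il4 and Il21 (cytokines of type 2 and follicular helpers), Foxp3 (the regulator of regulatory T cells), Gata3 (the regulator of type 2 helpers), Cxcr5 (the follicle homing receptor) and Cd8a or Cd8b1 (the CD8 coreceptor). UMIs were summed per mouse and class and tested with edgeR's quasi-likelihood test, with the mouse as a block and Benjamini-Hochberg adjustment over all genes; a gene is called at an adjusted p under 0.05. Of 14 comparisons 13 could be tested. The reporter sort held 9 Foxp3+ cells (6, 1 and 2 per mouse), under the 10 cells asked of a sum. Free RNA gives some UMIs to cells that do not express a gene. In the reporter sort Il13 was seen in 673 of 3204 cells used and in 8.19% of the Cd79a cells (median depths 7252.5 and 5253.5 UMIs). Il21 was seen in 30.2% and 6.47%, Gata3 in 39.9% and 6.90%, and Il4 in 12.6% and 2.59%. In the Tfh sort (median depths 2802.5 and 2339) Il4 was seen in 40.4% and 10.9% and Il21 in 35.1% and 10.7%, and Il13 in only 2.91% and 1.48%. The share of Tfh-sort cells with Il13 is therefore close to its background, and the Il13+ class holds 87 cells. In them the 5 other markers of type 2 helpers summed to 889, 1400 and 314 CPM, against 154, 130 and 127 in Il13- cells. Il4 was seen in 82.8% against 39.1%, and Il21 in 31.0% against 35.3%. Cxcr5 was more frequent in the Cd79a cells (40.9% and 42.7%) than in the T cells (15.6% and 9.89%), and B cells are known to express it. Marker-negative cells may express a marker below 1 UMI, so all classes are classes of detection. Classes of 1 sort share cells, and their results are not independent of each other.

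Most calls of members were in the reporter sort. Il13+ cells carried 15 lower and 3 higher members, where 11.5% of all genes tested were lower and 14.9% higher. Il21+ cells carried 12 higher and 0 lower, beside 2.94% and 1.48% of all genes, and Cxcr5+ cells 8 higher and 0 lower, beside 2.80% and 5.48%. The 12 members called in none of the 13 comparisons were Cd6, Grap2, Lat, Lcp2, Nck1, Pag1, Ptpn6, Skap1, Sos1, Ubash3a, Vav1 and Was, among them the Lat and Lcp2 scaffold. The smallest adjusted p among the 12 was 0.0517, for Was in reporter Il4+ cells.

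**Figure D2:**
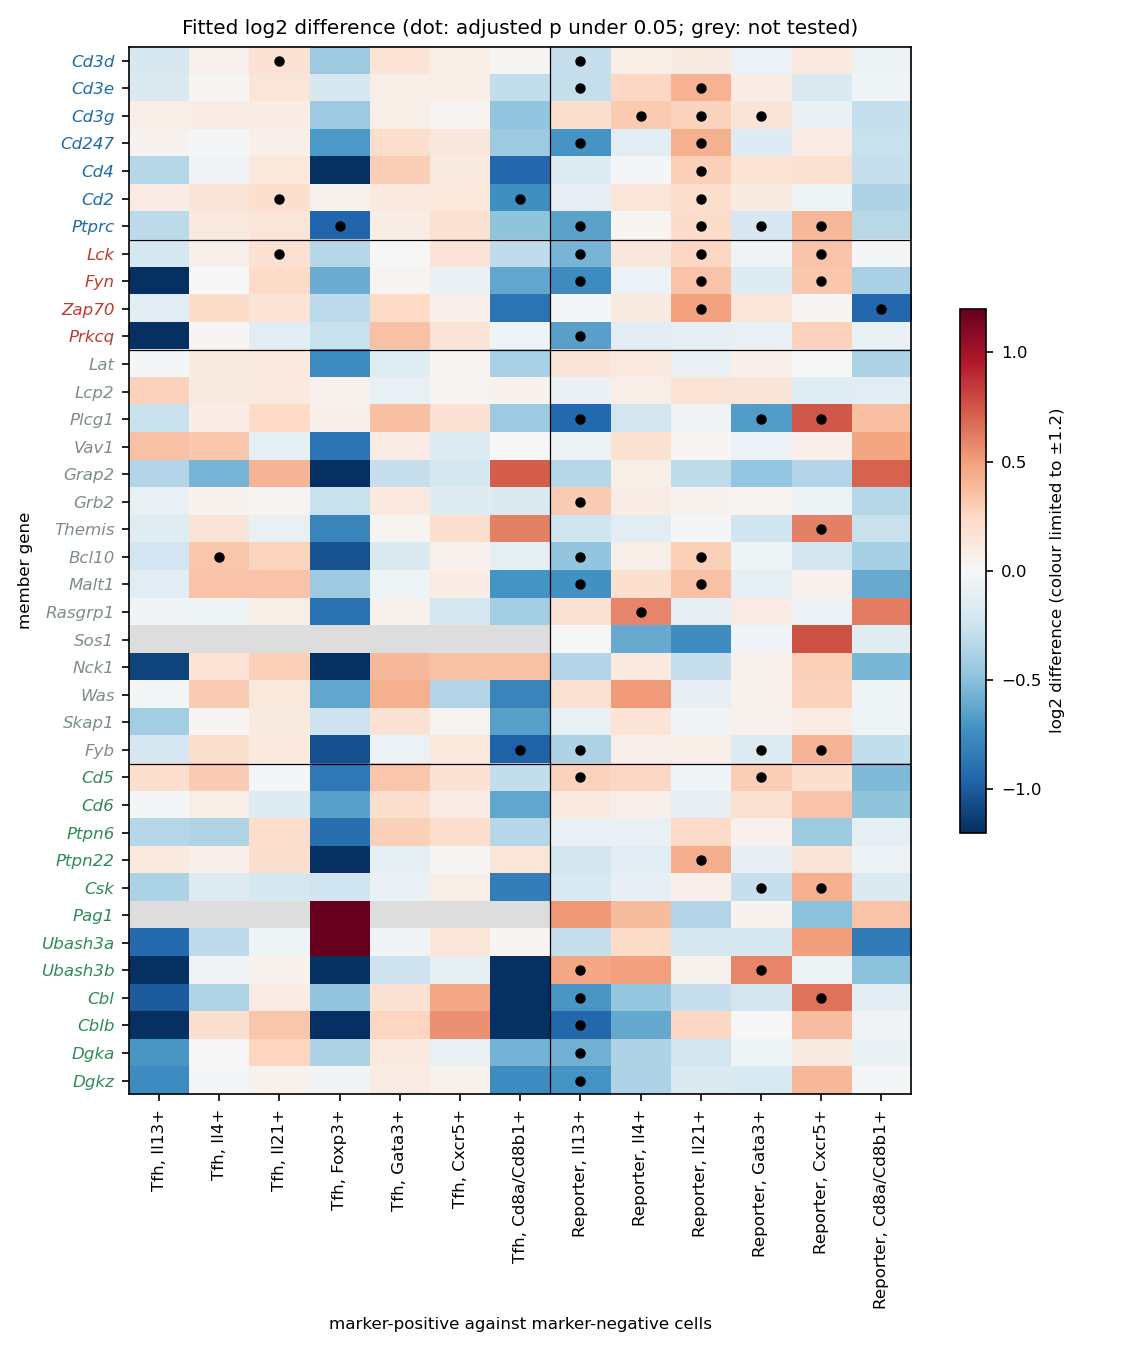
log2 difference of each member (rows, by role) in each of the 13 comparisons (columns), marker-positive minus marker-negative cells. Colour is limited to ±1.2, a dot marks an adjusted p under 0.05 and grey marks a gene under the count filter; the reporter Il13 column holds 18 dots and the reporter Il21 column 12.

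Il13+ cells of the reporter sort numbered 673 (241, 254 and 178 per mouse). They had lower transcripts of the receptor's zeta chain and of the kinases Lck and Fyn. Prkcq, Malt1, Bcl10, Plcg1 and Fyb were also lower. These 5 lost their calls both with cells matched for UMIs before thinning and without cycling cells. Of all 7929 genes tested, 26.3% were called, 14.9% higher and 11.5% lower, so a large part of the transcriptome differed between these cells and the Il13- cells. Of the 38 members 3 were called higher and 15 lower, with a median log2 difference of −0.23 beside −0.03 for all genes. Among receptor and surface genes 4 of 7 fell, among kinases 3 of 4, among adaptors and effectors 4 of 15 and among inhibitors 4 of 12. One adaptor (Grb2) and 2 inhibitors (Cd5 and Ubash3b) rose.

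Ptprc, which encodes CD45, stood at 961, 1010.4 and 959 CPM (here scaled by edgeR's TMM factors) in Il13+ cells of mice 1, 2 and 3, against 1496, 1495 and 1598 in Il13- cells. Every Il13+ value lay below every Il13- value, and the log2 difference was −0.65 (SE 0.08, adjusted p = 1.2e-05). Cd247, the signalling zeta chain, stood at 182, 141 and 127 against 283, 223 and 234 CPM, a log2 difference of −0.71 (SE 0.10, adjusted p = 6.9e-05), again without overlap. The extracellular CD3 chains changed less, with log2 differences of −0.28 for Cd3d (adjusted p = 0.016) and −0.28 for Cd3e (adjusted p = 0.026, with overlapping groups). Cd3g, the neighbour of Cd3d, was not called. It stood at 1927, 1640.0 and 1225 CPM against 1406, 1341 and 1379, higher in 2 mice and lower in the third (log2 difference 0.20, 95% interval 0.01 to 0.39, adjusted p = 0.15). Cd4 was also not called, with an interval of −0.37 to 0.05.

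Among the kinases, Fyn, the Src-family partner of Lck, stood at 165, 179 and 178 CPM in Il13+ cells and 301, 298 and 282 in Il13- cells. The groups were apart, with a log2 difference of −0.76 (SE 0.09, adjusted p = 2.2e-05). Lck stood at 380.0, 401 and 358 against 556, 562 and 558 CPM (−0.56, SE 0.08, adjusted p = 9.7e-05). Prkcq stood at 93.2, 92.9 and 116 against 139, 162 and 174 CPM (−0.66, SE 0.11, adjusted p = 0.00045). Zap70 did not follow them, at 299, 258 and 221 against 263, 268 and 264 CPM. Its groups overlapped and its interval of −0.22 to 0.16 leaves out changes as large as those of the other 3 kinases.

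Below the kinases, Malt1, the protease that carries the signal to NF-kappaB, stood at 148, 109.9 and 107 CPM against 205, 208 and 192 (−0.73, SE 0.11, adjusted p = 0.00021). Its partner Bcl10 fell by 0.48 on the log2 scale, Plcg1, which makes diacylglycerol, by 0.93, and Fyb, an adaptor of integrin activation, by 0.37. All 3 were apart between the groups, where 21 of 38 members were apart, called or not. The share of all genes apart was not counted. Being apart rests on the same sums as the calls, so it is no further support for them. Grb2, which brings Sos1 to the membrane, rose by 0.30 (adjusted p = 0.036). The scaffold was not called in either part: Lat differed by 0.16 (interval −0.00 to 0.31) and Lcp2 by −0.08 (−0.28 to 0.11). Vav1 differed by −0.07 (−0.39 to 0.26).

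The inhibitors divided. Dgkz, a kinase that removes diacylglycerol, stood at 76.3, 58.9 and 78.7 CPM against 122, 105 and 124 (−0.72, SE 0.12, adjusted p = 0.00048), and Dgka fell by 0.58. The ubiquitin ligase Cbl stood at 50.9, 58.9 and 60.0 CPM against 80.6, 98.4 and 97.1 (−0.70, SE 0.14, adjusted p = 0.0013), and Cblb fell by 0.94. Cd5, a surface inhibitor, stood at 222, 258 and 230.5 CPM against 196, 209.6 and 179, higher in every mouse (0.28, adjusted p = 0.035). Ubash3b, the phosphatase Sts-1, rose by 0.46 (adjusted p = 0.027) with overlapping groups. Pag1 was apart in the same direction but missed the threshold (0.52, adjusted p = 0.053).

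**Figure D3:**
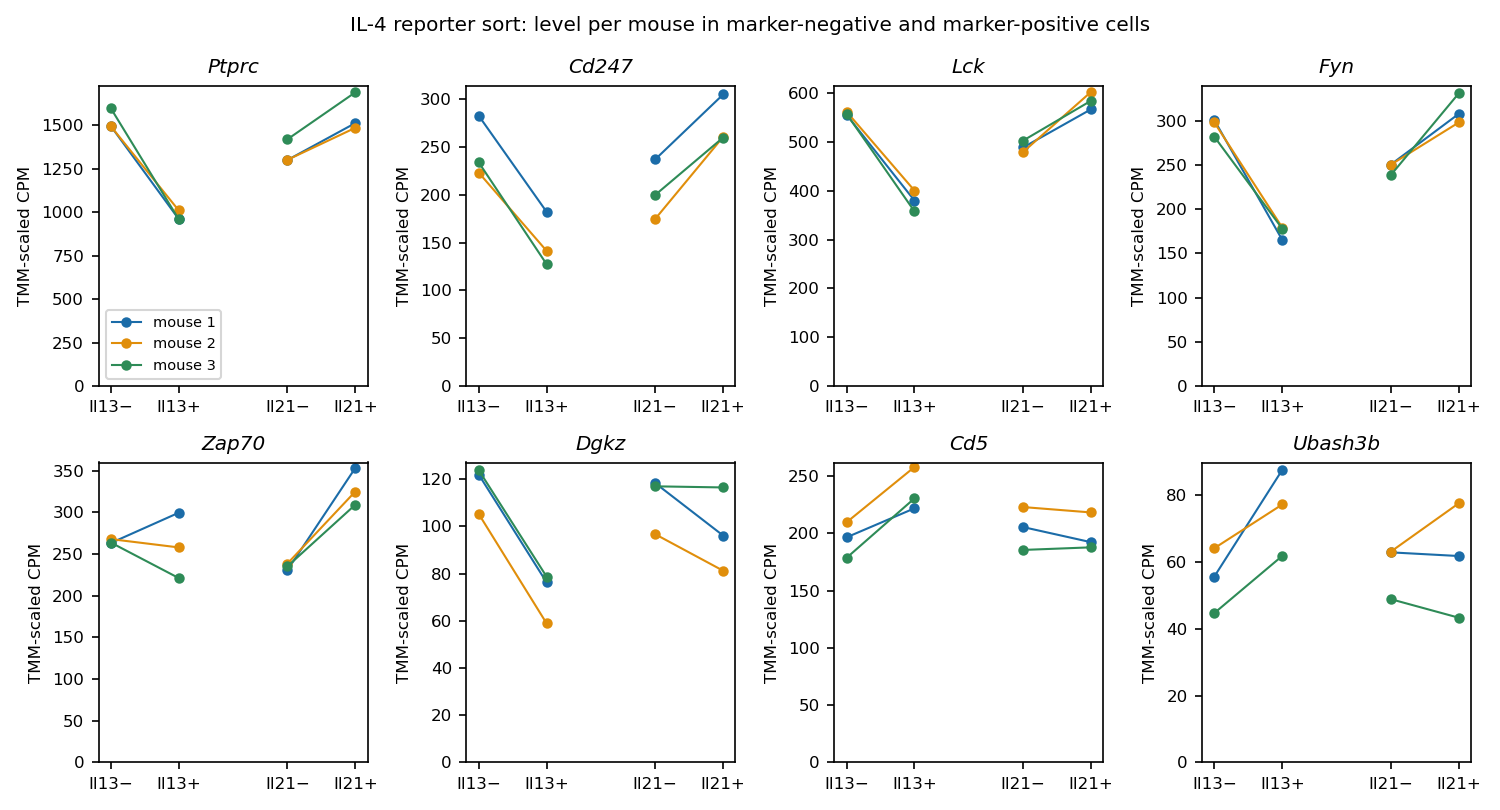
TMM-scaled CPM per mouse of 8 members in marker-positive and marker-negative cells of the reporter sort, for Il13 and for Il21. Lines join the classes of 1 mouse and each axis starts at 0; Ptprc, Cd247, Lck, Fyn and Dgkz are lower in Il13+ cells of all 3 mice, and Zap70 is higher in Il21+ cells of all 3.

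Other features moved with the Il13+ class. Its cells held more RNA before thinning, with median UMIs of 11070.0, 12088.5 and 12652.5 against 6926.5, 6737 and 6788. The 8 cycling markers summed to 1615, 2199 and 2388 CPM against 685, 812 and 894, and the 6 naive T-cell markers to 415, 399 and 581 against 878, 812 and 798, with none at 0 in either list. The 5 other markers of type 2 helpers summed to 1302, 927 and 655 CPM against 218, 249 and 207. The 8 Tfh markers summed to 1068, 769 and 704 CPM against 1170.2, 1161 and 1355, with none at 0. The 5 T-cell markers (Trac, Trbc1, Trbc2, Thy1 and the member Cd3e) summed to 4517, 4388 and 4504 CPM against 4956, 5068 and 5300, with none at 0. General T-cell transcripts were thus also lower in every mouse, and their part in the member values was not tested. The 8 NK and cytotoxic markers summed to 387, 193 and 114 CPM against 79.8, 85.9 and 85.7, with Ncr1, Klrd1 and Prf1 at 0. When Il13- cells were drawn to match the UMIs before thinning, 3 members were higher and 5 lower of 37 tested (8.83% of all genes called, 5.51% higher and 3.31% lower). Without cells carrying a cycling marker, 4 were higher and 7 lower of 38 (12.9% of all genes called, 7.91% higher and 4.96% lower). Ptprc, Fyn, Cd247, Lck and Dgkz were lower and called in all 16 alternatives run, and in the depth-matched one their log2 differences were −0.34, −0.55, −0.62, −0.32 and −0.61. Prkcq, Malt1, Plcg1, Bcl10, Fyb, Cblb, Cd3d, Cd3e and Grb2 lost their calls both at matched depth and without cycling cells.

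**Figure D4:**
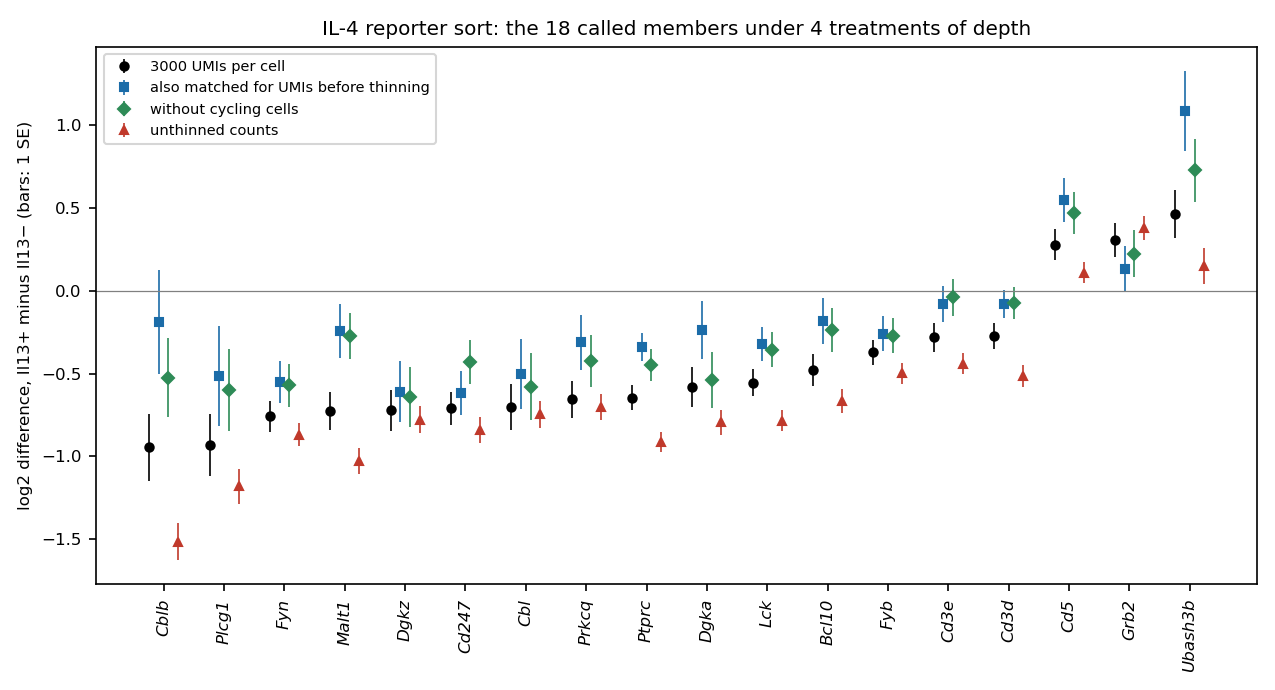
log2 difference (±1 SE) of the 18 members called in reporter Il13+ against Il13- cells, under equal depth (3000 UMIs), with Il13- cells matched for UMIs before thinning, without cycling cells and without thinning. The horizontal axis lists the genes and the vertical axis is the log2 difference. Ptprc, Fyn, Cd247, Lck and Dgkz stay below 0 in all 4, and most matched differences are smaller than those at 3000 UMIs.

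Il21+ cells of the reporter sort (969 cells) showed higher receptor chains and kinases. Of 8096 genes 4.42% were called, 2.94% higher and 1.48% lower. Of the members 12 of 38 were called, all higher. They were 6 of 7 receptor and surface genes, 3 of 4 kinases, 2 of 15 adaptors and effectors and 1 of 12 inhibitors. All 12 were apart between the groups, where 15 of 38 members were apart, called or not. The share of all genes apart was not counted. Being apart rests on the same sums as the calls, so it is no further support for them. The members' median log2 difference was 0.04 beside −0.01 for all genes.

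Zap70 led, at 353, 325 and 309 CPM in Il21+ cells against 231, 238 and 235 (0.49, SE 0.07, adjusted p = 1.9e-05). Fyn stood at 308, 298 and 331 against 251, 250.5 and 239 CPM (0.35, SE 0.07, adjusted p = 0.0023), and Lck rose by 0.25 (adjusted p = 0.012). Prkcq was not called (−0.10, interval −0.29 to 0.08). Cd3e, the chain that recruits Nck, stood at 476, 489.8 and 462 CPM against 396, 318 and 356 (0.41, SE 0.07, adjusted p = 0.00011). Cd247 stood at 305, 261 and 260.0 against 237, 175 and 199.9 CPM (0.43, SE 0.08, adjusted p = 0.00023), and Cd3g at 1627, 1666 and 1588 against 1462, 1311 and 1256 (0.28, SE 0.06, adjusted p = 0.0011). Cd3d, beside Cd3g in the genome, was not called (0.10, interval −0.01 to 0.21). Ptprc stood at 1513, 1486 and 1691 CPM against 1301, 1302 and 1420.1 (0.22, SE 0.05, adjusted p = 0.01), and Cd4 and Cd2 rose by 0.29 and 0.21.

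Malt1 stood at 215, 202 and 229 against 179.8, 171 and 157 CPM (0.35, SE 0.08, adjusted p = 0.0069), and Bcl10 rose by 0.28. The single inhibitor called was Ptpn22, a phosphatase that acts on Lck and Zap70, at 254, 267 and 334 CPM against 204, 218 and 211 (0.44, SE 0.08, adjusted p = 0.0003). The cycling markers were lower in Il21+ cells (790, 797 and 760 CPM against 937, 1346 and 1275). The naive markers were also lower (599, 543 and 650.1 against 857, 768 and 813), with none at 0 in either list, and the regulatory T-cell list, which holds Ctla4 and Il2ra, was higher (819, 892 and 1024 against 647, 482 and 610.1). The 7 Tfh markers other than Il21 were higher too (1081, 1025 and 1264 against 767, 697 and 920.2). So were the 5 T-cell markers, Cd3e among them (5041, 5284 and 5379 against 4775, 4719 and 5094). Their part in the member values was not tested. Without cycling cells 7 members were called (3.15% of all genes, 2.22% higher and 0.933% lower) and with depth matched 6 (2.81% of all genes, 2.02% higher and 0.789% lower), all higher. Zap70 and Cd247 were called in all 15 alternatives run. Without mouse 3, 3 members were called, and calls over all genes fell too, from 358 of 8096 to 163 of 8111.

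Since both classes share their negative cells in part, Il13+ Il21- cells (167, 184 and 141 per mouse) were also set directly against Il21+ Il13- cells (271, 211 and 306), a comparison added after the data were seen. Of 5699 genes 26.3% were called, 13.6% higher and 12.7% lower. Of the 38 members 17 were lower and 1 higher in the Il13+ Il21- cells, among them 6 of 7 receptor and surface genes and 4 of 4 kinases lower. Ptprc stood at 838, 991 and 898 CPM against 1635, 1676 and 1806 (−0.91, SE 0.09, adjusted p = 1.3e-07). Cd247 stood at 159, 123 and 125 against 334, 294 and 284 CPM (−1.16, SE 0.13, adjusted p = 6.4e-07). Fyn stood at 163, 184 and 163 against 356, 353 and 354 CPM (−1.06, SE 0.12, adjusted p = 1.2e-06), and Lck at 347, 383 and 324 against 614, 673 and 615 (−0.85, SE 0.11, adjusted p = 2.4e-06). Zap70 was lower here, at 247, 246 and 197 against 344, 346 and 318 CPM (−0.55, SE 0.12, adjusted p = 0.0015). Pag1 was the member that rose, at 50.1, 49.7 and 36.0 against 28.4, 33.8 and 17.9 CPM (0.77, SE 0.27, adjusted p = 0.036). Median UMIs before thinning were 11285.0, 11290.0 and 13576 against 7137, 7202 and 6906, and this comparison was not depth matched. In the Tfh sort the same comparison gave 0 of 29 members called, with 1.40% of 2652 genes called, 1.06% higher and 0.339% lower.

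Gata3+ cells of the reporter sort (1278 cells, of which 33.1% also held Il13) had 3 members higher and 4 lower of 38, where 6.45% of 8063 genes were called, 3.81% higher and 2.64% lower. Ptprc stood at 1248, 1224 and 1421 CPM against 1457, 1459 and 1547, lower without overlap (−0.20, adjusted p = 0.00035). Plcg1 stood at 33.4, 26.2 and 43.4 against 65.1, 44.8 and 55.5 CPM (−0.67, SE 0.15, adjusted p = 0.0030). Fyb fell by 0.17 and Csk, the kinase that silences Lck, by 0.27. The inhibitors Ubash3b (79.3, 73.6 and 67.0 against 51.2, 63.2 and 34.9 CPM, 0.59, adjusted p = 0.0032) and Cd5 (217, 259 and 211 against 191, 196 and 171, 0.30, adjusted p = 0.0072) rose. Cd3g rose by 0.16 (adjusted p = 0.007) with overlapping groups. No kinase was called. The Th2 markers other than Gata3 summed to 1531, 1355 and 481 against 323, 365 and 131 CPM. The cycling markers summed to 988, 1479 and 1373 against 825, 972 and 969, and the macrophage markers to 113, 99.6 and 159.9 against 126, 245 and 381, with C1qc at 0. Without cycling cells 4 of the 7 calls were kept (Ptprc, Plcg1, Ubash3b and Cd3g), and at 1500 UMIs per cell 2 were, Cd3g and Fyb. Leaving out mouse 1 left 3 and leaving out mouse 2 left 2. Over all genes, fits without 1 mouse called 344 to 511, beside 520 with all mice.

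Cxcr5+ cells of the reporter sort (317 cells) had 8 members higher and 0 lower of 38, where 8.28% of 8208 genes were called, 2.80% higher and 5.48% lower. Ptprc stood at 1831, 1991 and 1745 CPM against 1366, 1325 and 1506 (0.40, SE 0.06, adjusted p = 1e-06). Lck stood at 715, 614 and 641 against 509.9, 519 and 525 CPM (0.34, adjusted p = 0.0022), and Fyn at 358, 361 and 297 against 269, 261 and 269 (0.33, adjusted p = 0.040). Of adaptors and effectors 3 rose. Fyb stood at 737, 729 and 777 against 534, 583 and 572 CPM (0.41, adjusted p = 6.6e-05), Plcg1 at 83.9, 70.7 and 73.8 against 50.6, 34.2 and 49.1 (0.75, adjusted p = 0.012), and Themis, a regulator of the receptor's threshold, at 98.5, 78.1 and 136 against 68.4, 74.1 and 71.3 (0.60, adjusted p = 0.022). The inhibitor Cbl stood at 117, 149 and 124 against 71.6, 82.9 and 89.2 CPM (0.65, adjusted p = 0.0037) and Csk at 229.8, 167 and 207 against 160.4, 154 and 142 (0.42, adjusted p = 0.033). All 8 were apart between the groups, where 13 of 38 members were apart, called or not. The share of all genes apart was not counted. Being apart rests on the same sums as the calls, so it is no further support for them. The CD3 chains and Zap70 were not called: Cd3e differed by −0.17 (interval −0.36 to 0.01) and Zap70 by 0.01 (−0.20 to 0.22). T-cell markers summed to 5582, 5466 and 6176 CPM against 4793, 4827 and 5043, with none at 0. Th2 markers summed to 139, 261 and 179 CPM against 1124, 1091 and 506, with Il5 at 0 in the Cxcr5+ cells. Naive markers summed to 535, 515 and 449 against 798, 721 and 807, and cycling markers to 846, 458 and 524 against 895, 1257 and 1203, with none at 0 in either list. NK and cytotoxic markers summed to 0, 7.58 and 38.6 against 161, 125 and 97.0, with Ncr1, Gzma and Prf1 at 0. With 2 or more Cxcr5 UMIs none of the 8 calls was kept, Lck changed sign, and the 1 member called was lower (Cd3g). At 1500 UMIs 1 of the 8 was kept (Ptprc). Without cycling cells 3 were kept (Ptprc, Fyb and Lck) and Cd3e was called lower. DESeq2 and depth matching kept 3 each, and leaving out 1 mouse kept 3 to 5. Over all genes, fits without 1 mouse called 335 to 521, beside 680 with all mice.

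Il4+ cells of the reporter sort (404 cells) had 2 members higher and 0 lower of 38, where 2.52% of 7972 genes were called, 2.12% higher and 0.401% lower. Cd3g stood at 1964, 1635 and 1569 CPM against 1449, 1375 and 1314, apart in all mice (0.32, SE 0.05, adjusted p = 1.2e-05). Rasgrp1, which activates Ras when bound by diacylglycerol, stood at 132, 125 and 130.2 against 91.2, 84.1 and 83.0 CPM (0.59, SE 0.14, adjusted p = 0.0092). Th2 markers summed to 2565, 1745 and 832 CPM against 847, 905 and 409.6, with none at 0. Neither call was kept without mouse 1, at 1500 UMIs, with 2 or more Il4 UMIs or without thinning (where 3 members were higher and 18 lower), and leaving out mouse 2 or mouse 3 kept 1. Over all genes, calls fell from 201 of 7972 to 46 of 8114 without mouse 1. They fell to 47 of 6436 at 1500 UMIs and to 73 of 7651 with 2 or more Il4 UMIs.

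Cells with Cd8a or Cd8b1 UMIs in the reporter sort (121 cells) had 1 member lower and 0 higher of 38, where 2.07% of 7972 genes were called, 1.39% higher and 0.677% lower. Zap70 stood at 106, 106 and 198 CPM against 268, 259 and 249.9 (−0.94, SE 0.22, adjusted p = 0.0028). Cd4 itself was not lower beyond its error (113, 266 and 198 against 224, 214 and 231 CPM, interval −0.68 to 0.13). The naive markers summed to 1407, 1172 and 1454 CPM against 743, 686 and 743, with none at 0. The NK and cytotoxic markers summed to 574, 194 and 861 against 125, 112 and 65.4, with Klrb1c and Ncr1 at 0. The Tfh markers summed to 401, 785 and 806 against 1186, 1065 and 1270.0, with none at 0. The T-cell markers summed to 3432, 4925 and 4157 against 4933, 4885 and 5210, lower in mice 1 and 3 and not in mouse 2. The Zap70 call was lost without mouse 1, without mouse 2, without cycling cells, at 1500 UMIs and with DESeq2.

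In the Tfh sort few members were called. Il21+ cells (1052 cells) had 3 higher and 0 lower of 36, where 3.76% of 5611 genes were called, 2.21% higher and 1.55% lower. Cd2, an adhesion receptor that aids signalling, stood at 1220.2, 1227 and 1155 CPM against 1049, 1065 and 1016 (0.20, adjusted p = 0.0072). Cd3d stood at 1427, 1415 and 1448 against 1314, 1242 and 1246 CPM (0.17, adjusted p = 0.021), and Lck at 1165, 1237 and 1074 against 1066, 1029 and 977 (0.18, adjusted p = 0.023). All 3 were apart between the groups, where 13 of 36 members were apart, called or not. The share of all genes apart was not counted. Being apart rests on the same sums as the calls, so it is no further support for them. Zap70 and Cd247, called in reporter Il21+ cells, differed here by 0.16 (0.01 to 0.31, adjusted p = 0.36) and 0.06 (−0.13 to 0.25, adjusted p = 0.88). No test was made between the sorts. The 8 B-cell markers summed to 832, 804 and 872 CPM in Il21+ cells against 1450.5, 1646 and 1644, and the cycling markers to 456, 388 and 458 against 856, 906 and 1162, with none at 0 in either list. None of the 3 calls was made without cycling cells, with depth matched, or without mouse 1 or mouse 2.

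Il4+ cells of the Tfh sort (1210 cells) had 1 member higher and 0 lower of 36, where 2.97% of 5786 genes were called, 1.24% higher and 1.73% lower. Bcl10 stood at 329, 443 and 322 CPM against 294, 297 and 297 (0.33, SE 0.08, adjusted p = 0.011). The B-cell markers summed to 959, 1037 and 788 CPM against 1421, 1547 and 1785, with none at 0, and the Th2 markers to 455, 434 and 217 against 163, 170.5 and 111. The Bcl10 call was kept in 7 of 15 alternatives. It was lost without mouse 2, without cycling cells, without macrophage-marker cells, with depth matched, unthinned, at 2500 UMIs, with DESeq2 and with no block. Cells with Cd8a or Cd8b1 UMIs (68 cells) had 2 members lower and 0 higher of 36, where 2.17% of 5018 genes were called, 1.39% higher and 0.777% lower. Cd2 stood at 483, 938 and 589 CPM against 1146, 1159 and 1102 (−0.73, adjusted p = 0.0069), and Fyb at 161, 406 and 173 against 519.5, 474 and 536 (−0.97, adjusted p = 0.039). Neither call was made without mouse 1 or without mouse 3. The median log2 difference in this Cd8 comparison was −0.27 for all genes and −0.43 for the members, so the whole table was shifted toward lower values. With DESeq2's size factors 1 of the 2 calls was kept. Cd4 stood at 64.4, 254 and 104 against 289, 295 and 268 CPM (adjusted p = 0.25). The naive markers summed to 2476, 1667 and 2316 CPM against 678, 654 and 683, with none at 0. The NK and cytotoxic markers summed to 1333, 429 and 667 against 165, 56.2 and 155, with Klrb1c, Ncr1, Gzmb and Prf1 at 0. The Tfh markers summed to 1206, 1167 and 807 against 1507, 1509 and 1541, with Bcl6 at 0.

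Foxp3+ cells of the Tfh sort gave sums of 10 or more cells in 2 mice (20 and 13 cells; mouse 3 had 6 and was left out of the Foxp3+ class). Of 37 members 1 was lower and 0 higher, where 1.00% of 6879 genes were called, 0.160% higher and 0.843% lower. Ptprc stood at 1117 and 697 CPM in mice 1 and 2 against 1787, 1779.8 and 1622 (−0.95, SE 0.25, adjusted p = 0.026). The median of all genes was −0.51 here, so the whole table was shifted, and the call was lost with DESeq2's size factors. The macrophage markers summed to 2733 and 308 CPM against 271, 313 and 317, with C1qa, C1qb, C1qc, Csf1r and Fcer1g at 0 in the Foxp3+ cells, so Lyz2, Apoe and Ctss made up the sum. The cycling markers summed to 1233 and 1744 against 711, 704 and 917, with Hist1h1b at 0. The part of these lists in the Ptprc value was not tested.

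No member was called in Il13+, Gata3+ or Cxcr5+ cells of the Tfh sort by edgeR, with 1.13% of 5038 genes called in Il13+ cells (0.834% higher and 0.298% lower), 0.266% of 5270 in Gata3+ cells (0.152% higher and 0.114% lower) and 0.679% of 5154 in Cxcr5+ cells (0.252% higher and 0.427% lower). At an unadjusted p under 0.05 edgeR held 3, 5 and 3 of 36 members there. Of all genes it held 421 of 5038, 386 of 5270 and 404 of 5154 at that threshold. DESeq2 held 1, 0 and 1 members, beside 144, 57 and 51 of the same genes, with 0 members called in Il13+ cells. The B-cell markers summed to 979, 819.5 and 962 CPM in Gata3+ cells against 1287, 1414 and 1453, and to 1683, 2314 and 2802 in Cxcr5+ cells against 1164, 1156 and 1083, with none at 0. Fyn in the 87 Il13+ cells stood at 94.2, 87.1 and 140.1 CPM against 239, 236 and 248. The groups were apart, with a log2 difference of −1.24 and an adjusted p of 0.072. Among the 36 members tested there, 9 were apart and 0 called, and the share of all genes apart was not counted. These Il13+ sums held 30, 40 and 17 cells of mice 1, 2 and 3, so the Fyn values in them rest on few UMIs. Ptprc stood at 1459.7, 1167 and 1261 against 1653, 1646 and 1502 CPM (−0.32, adjusted p = 0.52). Cd247 differed by 0.04, with an interval of −0.47 to 0.56.

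Other genes of the same pathway were read from a list of 56, among them kinases of the Tec family, MAP kinases, calcineurin, NFAT and NF-kappaB factors. In reporter Il13+ cells 9 rose and 14 fell of 53 tested, where 14.9% of all genes rose and 11.5% fell. Dok2, an adaptor that restrains Ras, rose by 1.35 on the log2 scale (adjusted p = 3.3e-07) and the NF-kappaB subunit Nfkb1 by 0.96 (1.1e-05). The phosphatase Ptpn11 fell by 1.12 (2e-05) and the Tec-family kinase Txk by 1.76 (8.2e-05). In reporter Il21+ cells 10 rose and 0 fell (2.94% and 1.48% of all genes), led by Nfatc1 (0.72, adjusted p = 4.3e-07), Ptpn11 (0.68, 2e-06), Rel (0.54, 2.5e-06) and Nfkbia (0.35, 3.2e-05). Nfatc1, Rel and Nfkbia are themselves targets or feedback parts of the signal. Gata3+ cells had 7 higher and 2 lower (3.81% and 2.64% of all genes), Il4+ cells 6 and 0 (2.12% and 0.401%), and cells with Cd8 UMIs 0 and 2 (1.39% and 0.677%). Cxcr5+ cells had 4 higher and 5 lower (2.80% and 5.48%). Nfkbia, the inhibitor of NF-kappaB, fell by 0.77 there (2.3e-15) and Dok2 by 1.29, and Ptpn11 rose by 0.84. In the Tfh sort Il21+ cells had 4 higher and 0 lower of 50 (2.21% and 1.55% of all genes), among them Sla (0.33), Nfkb1 (0.33) and Rel (0.21). Il4+ cells had 1 higher (Trbc2, 0.12, where 1.24% of all genes were higher), Foxp3+ cells 1 lower (Cd28, −1.36, 0.843%) and Cd8 cells 1 lower (Trbc1, −0.54, 0.777%). None of the list was called in Tfh Il13+, Gata3+ or Cxcr5+ cells.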

How the data were processed

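Single-cell 3′ expression and hashtag tags were measured in 2 sorts of mouse CD4 T cells, 3 mice each. The deposited tables hold raw UMI counts per gene and raw hashtag counts per barcode. Reads were converted with bcl2fastq (2.18.0.12, 2.20.0.422) and counted with Cell Ranger 2.2.0 on mm10 or GRCm38, per the submitters' processing notes, although the header of the reporter matrix gives 3.0.2. Version 2 chemistry and a HiSeq instrument served the Tfh sort, version 3 and a NovaSeq the reporter sort, per the labels' protocols. Counts of 67 repeated symbols were summed.

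A cell's mouse was its hashtag with 10 or more counts and 3 times the second, which also removes doublets between mice; doublets within a mouse stay in. Cells were thinned by drawing UMIs without replacement with a fixed seed, and the marker gene was taken out of each table. Sums per mouse and class (10 or more cells) were fitted with edgeR 4.0.16 (limma 3.58.1, R 4.3.3; TMM, filterByExpr at a minimum count of 10). Each mouse gives both classes, so the mouse was a block, with 6 sums and 2 residual degrees of freedom (1 for Tfh Foxp3). DESeq2 1.42.0 was an alternative. Thinning and summaries used Python 3.11.15 with numpy 2.4.6, scipy 1.17.1, pandas 2.3.3 and matplotlib 3.10.9. The fit was tested on simulated data. Intervals of log2 differences are 95% intervals; UMI depth limits them for genes under about 50 CPM.

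The 38 genes, the 56 pathway genes and the marker lists were chosen with earlier results of these data known. Up to 8 called members per comparison are given per mouse, by smallest p, and up to 4 called pathway genes. The value of 1 called pathway gene is not reported here. Alternatives were another depth (2500 or 1500 UMIs), no thinning, 2 or more marker UMIs, DESeq2 and its size factors, no count filter, no block, each mouse left out, and cells with cycling or macrophage markers left out. Cells with B-cell markers left out, depth matching, adjustment over all comparisons and the direct Il13 and Il21 comparison were added after seeing the data.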

Additional observations from a re-analysis of the deposited data

Results flagged for a closer look

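Plcg1, the phospholipase that cleaves PIP2 after receptor binding, was called with Gata3 in the reporter sort only, and its value in the Tfh sort had the other sign. It was flagged because all 3 mice went 1 way in each sort. In the reporter sort it was lower in Gata3+ cells of all 3 mice, with a log2 difference of −0.67 (SE 0.15, edgeR's adjusted p = 0.0030). In the Tfh sort it was higher in Gata3+ cells of all 3 mice, at 39.8, 26.4 and 35.2 CPM against 30.3, 23.9 and 22.8 (0.36, SE 0.34, adjusted p = 0.89). That Tfh-sort difference was not beyond its error, and UMI depth limits values under about 50 CPM. The difference between the sorts was not tested, since strain, chemistry and sequencer differ with the sort.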

How the results depend on the processing

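With 2 residual degrees of freedom and 3 mice, calls moved with many choices, in large classes (reporter Gata3+, Tfh Il21+) as well as in small ones. Of 55 member calls, 53 were kept with DESeq2's size factors, 54 without macrophage-marker cells, 52 without B-marker cells, 50 without a count filter and 49 with p adjusted over all comparisons. DESeq2 kept 19 of 54, depth matching 24 of 55, leaving out cycling cells 26 of 54 and the other depth 28 of 54. The cause was not tested. Counts of members called, as first fitted and then under each setting that moved them by over 1.5 times, follow; a count can hold other members than the first. Tfh Il13 (0): unthinned 2, 2 or more UMIs 3, no filter 2, without macrophage-marker cells 1, p over all comparisons 1. Tfh Il4 (1): other depth 2, 2 or more UMIs 2, DESeq2 0, its size factors 2, without cycling cells 0, without macrophage-marker cells 0, without B-marker cells 2, p over all 3. Tfh Il21 (3): other depth 6, DESeq2 0, size factors 5, without cycling cells 0, matched 0. Tfh Foxp3 (1): unthinned 8, DESeq2 0, size factors 0, no filter 2, without B-marker cells 2, matched 0, p over all 2. Tfh Gata3 (0): unthinned 10. Tfh Cxcr5 (0): unthinned 1, p over all 1. Tfh Cd8 (2): other depth 1, DESeq2 0, size factors 1, no filter 4, without B-marker cells 1, matched 0. Reporter Il13 (18): DESeq2 8, without cycling cells 11, matched 8. Reporter Il4 (2): other depth 0, unthinned 21, 2 or more UMIs 0, DESeq2 1, without cycling cells 1. Reporter Il21 (12): unthinned 4, DESeq2 6, without cycling cells 7, matched 6. Reporter Gata3 (7): other depth 2, unthinned 22, DESeq2 1, without cycling cells 4. Reporter Cxcr5 (8): other depth 2, unthinned 16, 2 or more UMIs 1 (lower), DESeq2 3, without cycling cells 4 (3 higher, 1 lower), matched 3. Reporter Cd8 (1): other depth 0, unthinned 23, 2 or more UMIs 4, DESeq2 0, without cycling cells 0. Unthinned, all 10 and 8 in Tfh Gata3+ and Foxp3+ cells and all 23 in reporter Cd8 cells were lower. So were 18 of 21 and 21 of 22 in reporter Il4+ and Gata3+ cells. Of all genes 13.8%, 5.63%, 23.2%, 32.1% and 46.7% were called there. Unthinned Tfh Il13, Tfh Cxcr5, reporter Il21 and reporter Cxcr5 had 2.73%, 2.42%, 5.78% and 18.8% of all genes called. Without cycling cells, Tfh Il4 and Il21 had 2.82% and 1.42%. Reporter Il4, Gata3, Cxcr5 and Cd8 had 2.39%, 4.5%, 6.15% and 1.12% there. Matched, Tfh Il21, Foxp3, Cd8 and reporter Cxcr5 had 1.77%, 0.756%, 4.11% and 5.94%. Counts under settings whose share is not given describe only how calls moved.

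The same mice give both classes, so the replicate block is part of the first fit. With no replicate block the counts became 1 in Tfh Il13, 0 in Tfh Il4, 1 in Tfh Il21 and 4 in Tfh Foxp3, and 0, 5 and 0 in reporter Il4, Il21 and Gata3; 33 of 55 calls were kept. Leaving out 1 mouse gave 0 to 2 members in Tfh Il13 (2 without mouse 3), 0 to 1 in Il4, 0 to 3 in Il21, 1 in Foxp3, 0 in Gata3 and Cxcr5 and 0 to 2 in Cd8. In the reporter sort it gave 13 to 15 in Il13, 0 to 1 in Il4, 3 to 10 in Il21, 2 to 5 in Gata3, 3 to 5 in Cxcr5 and 0 to 1 in Cd8. Called members that changed sign were Cd3d in Tfh Il21+ cells (−0.0105) and Cd3g in reporter Gata3+ cells (−0.14), both unthinned, and Lck in reporter Cxcr5+ cells with 2 or more UMIs (−0.13). DESeq2's size factors shifted the median of all genes by over 0.1 in Tfh Foxp3 alone (0.22). Leaving out cycling cells was not run for Tfh Foxp3, which had too few cells.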
